A study of Mus musculus with 16 samples.

Results

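Voltage-gated potassium (Kv) channel alpha subunits were examined in hippocampal RNA-seq of High and Low Activity mice. The members were the 40 genes, of 31960 in the count table, whose symbol is Kcn followed by a family letter (a, b, c, d, f, g, h, q, s or v) and a number. These letters cover the Kv families from Kv1 to Kv12, silent subunits included. The study compared 4 High Activity females and 4 High Activity males with 4 Low Activity females and 4 Low Activity males, all untreated, without a transgene and 70 days old, with 1 library per mouse. High and Low Activity are inbred strains that were selected in opposite directions for locomotion in an open field. Each direction is 1 inbred line here, so a strain difference and an effect of the selection cannot be told apart. Values are CPM, the deposited expected counts scaled to library size after TMM normalization. Differences are log2 fold changes of High over Low Activity with their standard error (SE), and a gene was called where the p of edgeR's quasi-likelihood test, adjusted by Benjamini and Hochberg's method over all 31960 genes, was under 0.05.

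Kv channels open when the membrane depolarizes and let potassium out of the cell, which ends the action potential and sets how soon the next can follow. A channel is built from alpha subunits around a shared pore, and most members of a family can mix within a channel, while silent subunits reach the membrane only together with Kv2 subunits. In the hippocampus Kv1 channels work mainly in axons, Kv2 channels on somata and proximal dendrites, Kv3 channels in fast-spiking interneurons and axon terminals, Kv4 channels in dendrites and Kv7 channels at the axon initial segment.

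Total counts ranged from 20815456 to 28760896 per library, and 23108 to 24134 genes had a count. All 8 hippocampal markers were present, the lowest being Grik4 at 48.4 CPM on average. The summed level of 8 thalamus and habenula markers was raised in 4 male libraries, at 590 CPM in High Activity male 6, 358 in High Activity male 8, 350 in Low Activity male 14 and 275 in Low Activity male 16. It was 118 to 228 CPM in High Activity females and 121 to 132 CPM in Low Activity females. No marker of that list was at 0 on average, and 2 of the 8 were called for any strain effect. These 2, Gpr151 and Tac2, were high only in High Activity males 6 and 8. Gpr151 was at 12.3 and 10.9 CPM there, and at 0.472 and 0.810 CPM in Low Activity males 14 and 16. Tac2 was at 11.7 and 13.7 CPM, against 3.15 and 3.24 CPM. Prkcd was at 92.1 to 142 CPM in the 4 libraries and at most 69.5 CPM elsewhere. The 4 libraries were therefore not raised in all the same markers. The hippocampus was measured as bulk tissue, so fewer cells of a type and less RNA per cell cannot be told apart, and p-values describe the spread between mice of the same inbred strain.

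The members spanned several orders of magnitude in level per length. Per kb of the longest annotated transcript, Kcnd2 averaged 25.1 CPM over the 16 libraries, Kcnh3 23.8, Kcnc1 22.4, Kcna1 18.8, Kcnc2 18.4 and Kcna2 17.9 CPM per kb, and the range over libraries of each overlapped that of the next. Kcnd2 carries the dendritic A-type current, Kcnh3 is a brain channel of the ether-à-go-go group, and Kcna1 and Kcna2 are axonal Kv1 subunits. Further down the order, the only neighbours whose ranges did not overlap were Kcns3 above Kcnb2 and Kcnh8 above Kcnv2.

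By depth, 24 members had a mean of at least 10 CPM, 10 had 1 to 10 CPM and 6 had less than 1 CPM. The 6 were Kcnh6 (0.907 CPM), Kcnh8 (0.635 CPM), Kcnq1 (0.460 CPM), Kcnv2 (0.0647 CPM), Kcna7 (0.0266 CPM) and Kcna10 (0.00512 CPM), and Kcnq1, a heart and inner ear subunit, overlaps the long noncoding RNA Kcnq1ot1. A minimum expression filter kept 37 of the 40. None of the 6 genes was called in a strain contrast.

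**Figure D1:**
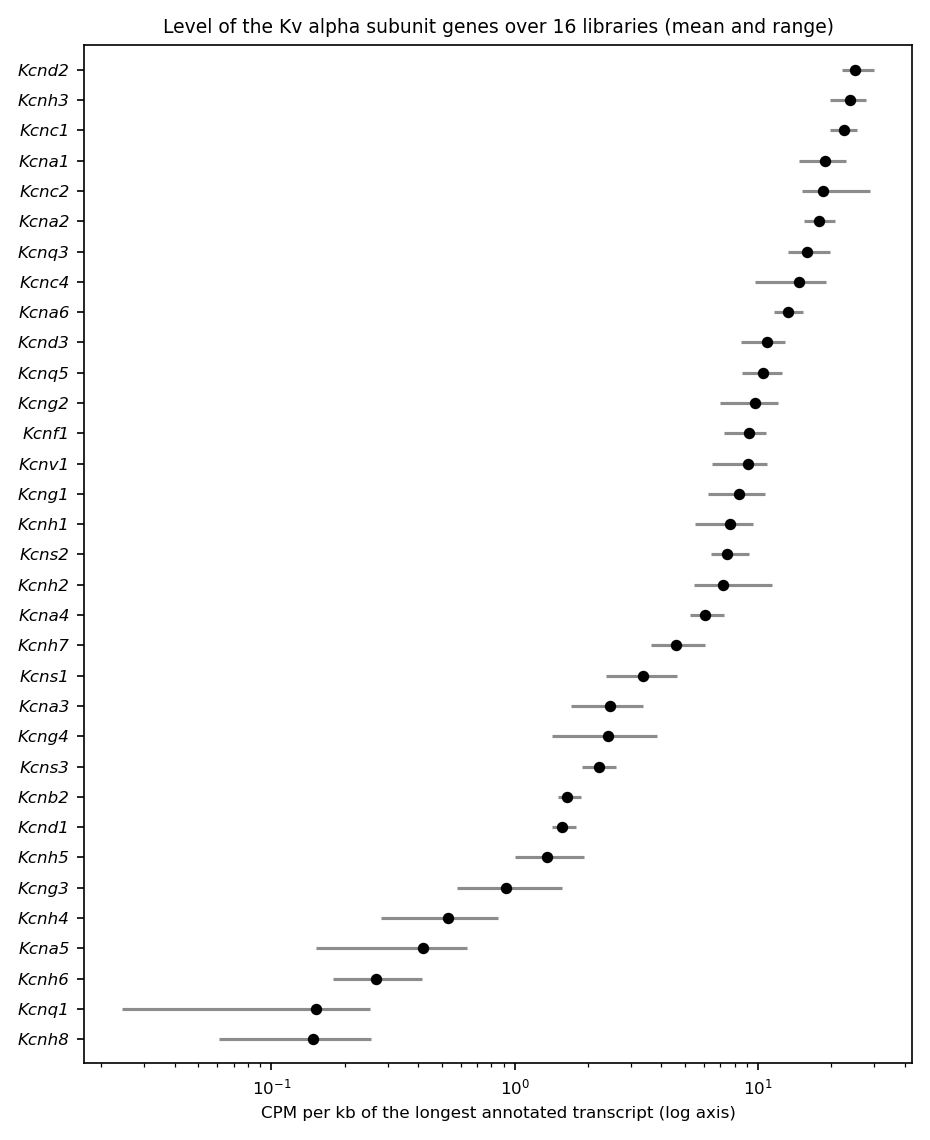
Level of 33 Kv alpha subunit genes as CPM per kb of the longest annotated transcript on a log axis, with the mean over 16 libraries as a point and the range over libraries as a line. Kcnv2, Kcna7 and Kcna10 had a count of 0 in at least 1 library and are not drawn. Kcnd2 is at 25.1 CPM per kb and Kcnh8 at 0.148 CPM per kb.

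Summed per family, Kv7 genes had the most counts, with 774 to 817 CPM in High Activity females, 731 to 769 CPM in Low Activity females, 691 to 864 CPM in High Activity males and 757 to 936 CPM in Low Activity males. Per kb of transcript, the Kv3 genes summed to 95.0 and the Kv7 genes to 91.6 CPM per kb over all libraries. The sum of all 40 members was 2434 to 2630 CPM in High Activity females against 2461 to 2552 CPM in Low Activity females. In males it was 2437 to 2598 CPM in High Activity against 2574 to 2906 CPM in Low Activity libraries. The groups overlapped in both sexes. Of the 10 family sums, those of Kv7 and Kv9 did not overlap between the females, and those of Kv1 and Kv6 did not overlap between the males. The Kv9 gap was narrow, with 53.66 CPM the highest in High Activity females and 53.72 CPM the lowest in Low Activity females. How often sums of other genes fail to overlap is not given here, so this is no result about the Kv families. The silent Kv6 subunits summed to 61.8 to 71.3 CPM in High Activity and 72.9 to 84.2 CPM in Low Activity males, and Kv1 to 370 to 392 CPM in High Activity and 401 to 448 CPM in Low Activity males.

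Differences between the strains were few and small, and most of those called were lower in High Activity. For the mean over the sexes, 8 members were called, of which 7 were lower (Kcnc4, Kcng2, Kcnh1, Kcng1, Kcna4 and Kcnh4 among them) and Kcnc2 was higher. Across all genes 11.4% were called for the mean, 5.89% lower and 5.46% higher. Among members with a mean of at least 1 CPM, 8 of 34 were called (23.5%), against 21% of the 15078 genes at that level, so the share was near the background. For any strain effect, tested jointly over strain and its interaction with sex, 7 of 40 were called (17.5%), against 10.3% of all genes, and 7 of 34 (20.6%) against 19.6% of genes at 1 CPM or more. In females 3 members were called, Kcna1 higher and Kcnc4 and Kcng2 lower, against a background of 7.26%, 3.7% higher and 3.55% lower. In males 3 were called, all lower, with Kcng2 and Kcnh1 among them, against a background of 6.04%, 2.78% higher and 3.25% lower. Over the 34 members at 1 CPM or more, the median log2 fold change was -0.017 in females, -0.103 in males and -0.046 for the mean. Over all genes at that level it was -0.007 in each. Of these 34 members, estimates were below 0 for 17 in females, 26 in males and 24 for the mean.

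The count in males turned on single libraries. It was 1 without Low Activity male 13, 6 without High Activity male 5 and 7 without High Activity male 7. Leaving out High Activity male 7 also gave 12 members with any strain effect and 5 in females, and leaving out High Activity male 6 gave 5 in females. Leaving out Low Activity female 9 or Low Activity female 10 gave 2 in females. The share of all genes called in each of these fits is not given here. These counts therefore cannot be read as particular to the Kv genes.

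**Figure D2:**
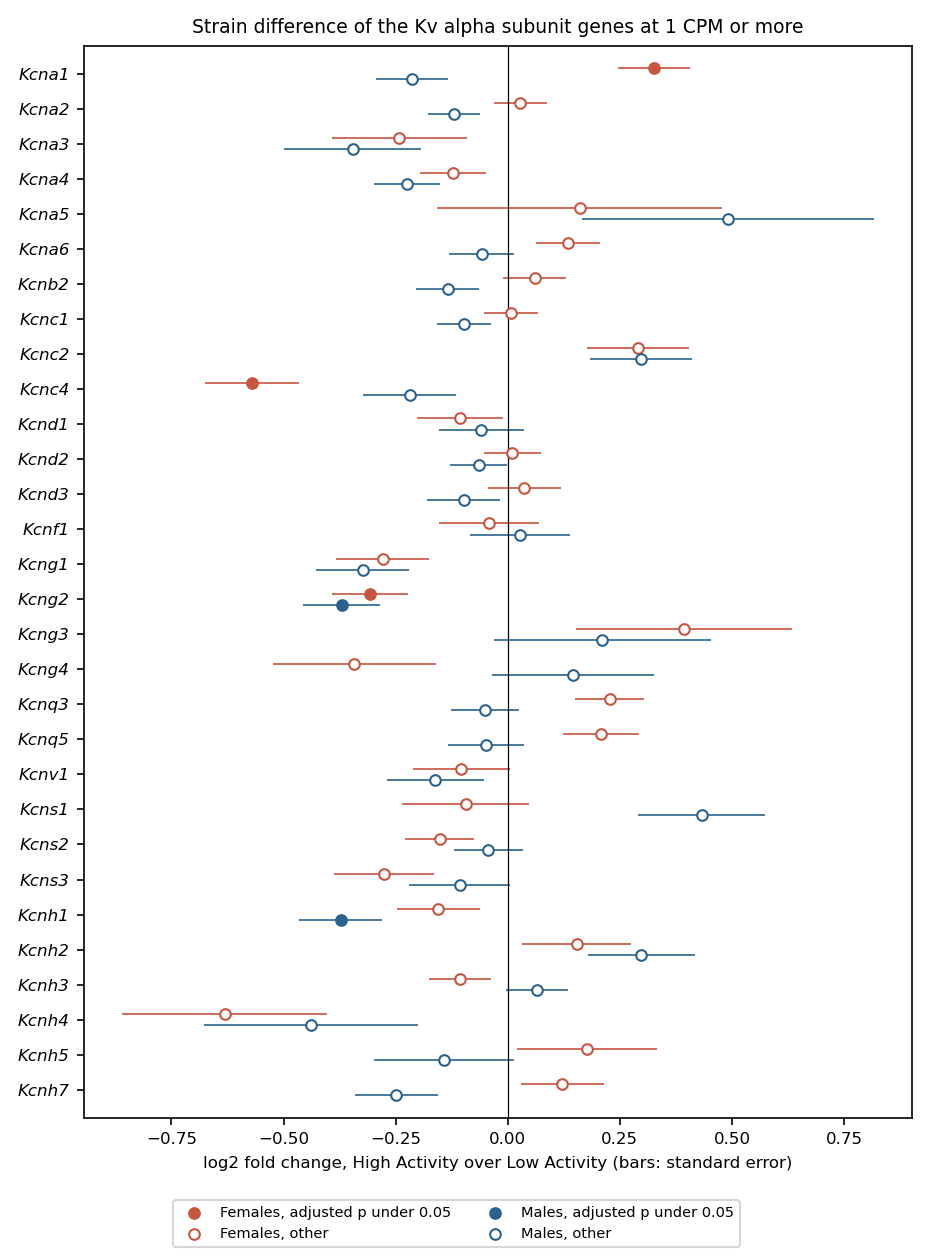
Log2 fold change of High over Low Activity with its standard error in females (red) and males (blue) for 30 Kv alpha subunit genes with a mean of at least 1 CPM, ordered by family. Filled points passed an adjusted p of 0.05. The filled points are Kcna1, Kcnc4 and Kcng2 in females and Kcng2 and Kcnh1 in males.

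The Kv3 family held calls in both directions. Its channels open at strongly depolarized voltages and close fast, which lets neurons fire at high rates, and its genes encode nearly the same pore. The selectivity filter and its flanks are shown for 3 genes to show how alike they are, with the codons of the filter signature in capitals, on GRCm38 from the GENCODE M21 transcripts. They lie at chr7:46427952-46428011 for Kcnc1 (plus strand, exon 2), chr10:112456208-112456267 for Kcnc2 (plus strand, exon 3) and chr3:107447775-107447834 for Kcnc4 (minus strand, exon 2), all in coding sequence.
Kcnc1: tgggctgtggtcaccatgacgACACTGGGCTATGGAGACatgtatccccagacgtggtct
Kcnc2: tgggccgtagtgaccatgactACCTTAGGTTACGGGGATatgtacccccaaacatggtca
Kcnc4: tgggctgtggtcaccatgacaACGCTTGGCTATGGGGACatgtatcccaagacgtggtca
Over these 60 bases Kcnc1 and Kcnc4 shared 54 bases (90%), Kcnc2 and Kcnc4 shared 46 (76.7%), and Kcnc1 and Kcnc2 shared 45 (75%). No stretch of 100 bases of the longest Kcnc1, Kcnc2 or Kcnc4 transcript occurred in a transcript of another gene on either strand. Whether the counting used strand is not given in the sources used here.

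Kcnc4, whose subunit gives an inactivating current in axons and terminals, had the smallest adjusted p of all members in females. It lies on chromosome 3 of GRCm38 from 107438303 to 107459552 on the minus strand. Kcnc4 was at 35.7, 50.6, 38.6 and 50.2 CPM in High Activity females, against 57.0, 65.5, 69.5 and 67.8 CPM in Low Activity females. All High Activity females were below all Low Activity females. The log2 fold change was -0.57 (SE 0.10, adjusted p = 0.000556), a level 0.674 times that of Low Activity females. In males Kcnc4 was at 39.8, 57.0, 45.8 and 54.7 CPM in High Activity, against 52.6, 57.3, 63.7 and 55.6 CPM in Low Activity. The male groups overlapped, and the log2 fold change of -0.22 (SE 0.10, adjusted p = 0.287) did not pass the test. It was -0.42 with an adjusted p of 0.00997 without High Activity males 6 and 8. The difference between the sexes was -0.35 (SE 0.15, adjusted p = 0.409), and the mean over the sexes was -0.39 (SE 0.07, adjusted p = 0.000413). The female and mean calls held without any 1 of the 16 libraries.

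Kcnc2, a subunit of interneurons and of thalamic relay neurons, was the only member called higher for the mean. It lies on chromosome 10 from 112271121 to 112467024 on the plus strand. Kcnc2 was at 102, 106, 80.7 and 94.1 CPM in High Activity females, against 79.1, 79.7, 77.3 and 76.6 CPM in Low Activity females. The female groups did not overlap, although High Activity female 3 was close to the Low Activity libraries. In males it was at 92.0, 145, 93.4 and 107 CPM in High Activity, against 78.3, 110, 77.0 and 89.6 CPM in Low Activity. The male groups overlapped, with the highest values in High Activity male 6 and Low Activity male 14. The log2 fold change was 0.29 in females (SE 0.11, adjusted p = 0.139), 0.30 in males (SE 0.11, adjusted p = 0.142) and 0.29 for the mean (SE 0.08, adjusted p = 0.0145). The mean was 0.18 with an adjusted p of 0.0573 without High Activity males 6 and 8, and 0.27 with an adjusted p of 2.12e-05 without all 4 libraries of raised thalamus and habenula markers. With limma-voom it was 0.28 with an adjusted p of 0.0631. In females Kcnc2 passed the test without High Activity male 6 (adjusted p = 0.0301), and in males without High Activity male 5 (0.0454) or Low Activity male 14 (0.0203). The female value also passed with females fitted alone, without High Activity males 6 and 8, and without the 4 libraries of raised markers. The call for any strain effect (adjusted p = 0.0450) was made in 6 of the 10 other alternatives and in 5 of the 16 fits that left out 1 library. Those fits left out High Activity female 3, High Activity males 5, 6 or 7, or Low Activity male 14.

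Kcnc1, another Kv3 gene, averaged 170 ± 11.7 CPM in High Activity females and 169 ± 2.54 CPM in Low Activity females (SD, n = 4 each), and 173 ± 13.3 CPM in High Activity males and 185 ± 14.4 CPM in Low Activity males (n = 4 each, SD). Its mean log2 fold change was -0.05 (SE 0.04, adjusted p = 0.637). Kv3 genes are expressed in interneurons, whose 8 markers summed to 624 to 765 CPM in High Activity females, 738 to 781 CPM in Low Activity females, 629 to 705 CPM in High Activity males and 672 to 749 CPM in Low Activity males. Of these markers 2 were called for any strain effect and none was at 0, and their part in the Kv3 values was not tested.

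**Figure D3:**
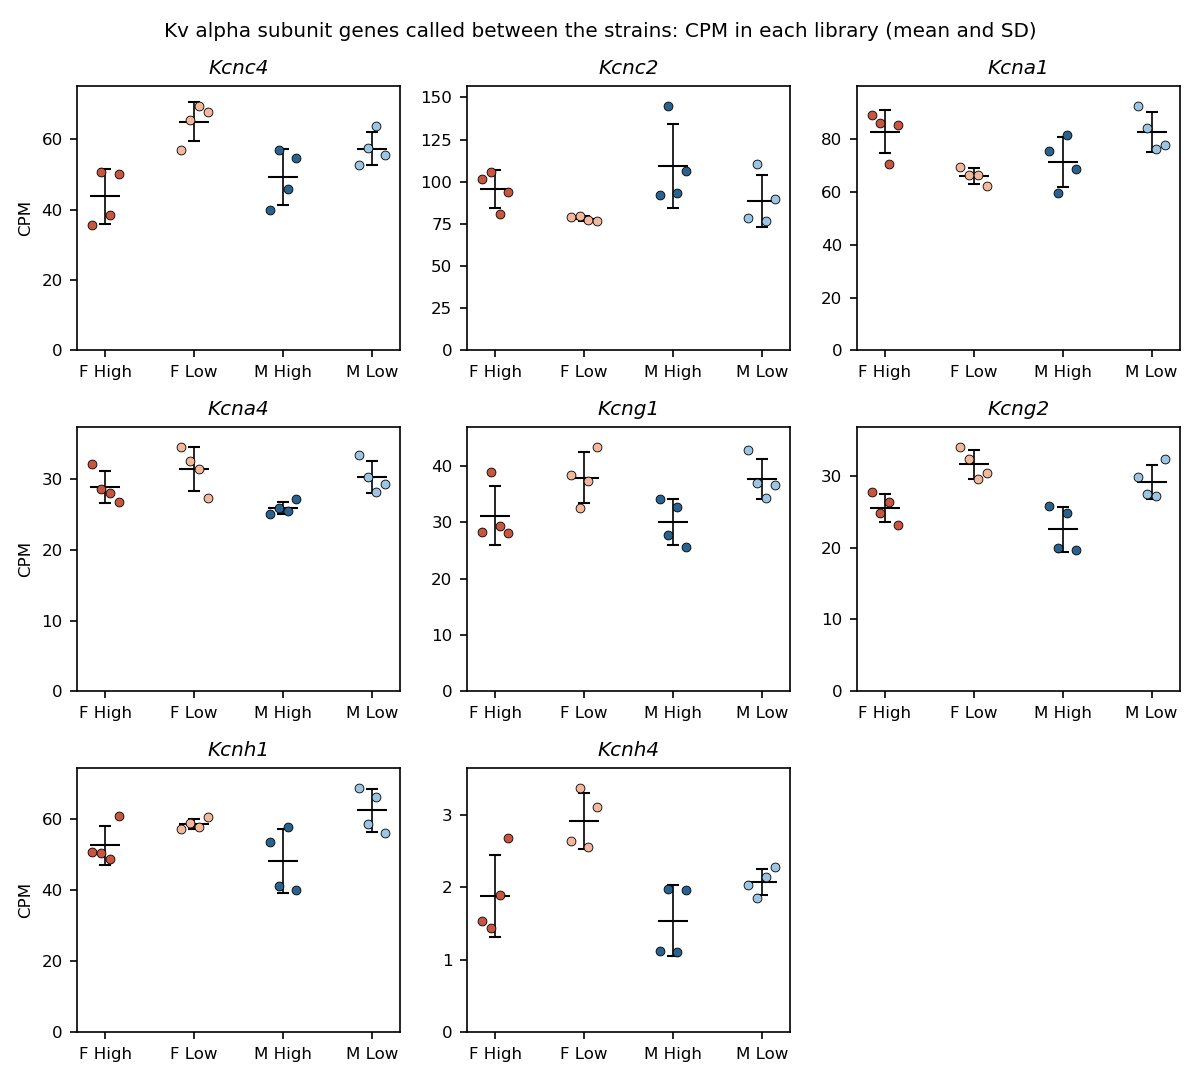
CPM of 8 called Kv alpha subunit genes in each library, with the mean and SD of each group of 4 (bars), for High and Low Activity females and High and Low Activity males. Kcnc4 and Kcng2 are lower in all High Activity females than in any Low Activity female, and Kcna1 is higher in all of them.

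In the Kv1 family the 2 called members differed from each other. Kcna1 encodes a low-threshold axonal subunit whose loss causes seizures in mice and episodic ataxia in humans, and it lies on chromosome 6 from 126640397 to 126646384 on the minus strand. Kcna1 was at 89.005, 86.1, 70.6 and 85.1 CPM in High Activity females, against 69.3, 66.2, 66.4 and 62.0 CPM in Low Activity females. All High Activity females were above all Low Activity females, and the log2 fold change was 0.33 (SE 0.08, adjusted p = 0.0104). In males Kcna1 was at 75.4, 59.5, 81.4 and 68.4 CPM in High Activity, against 92.6, 84.1, 76.3 and 77.5 CPM in Low Activity. The male groups overlapped through High Activity male 7, and the value of -0.21 (SE 0.08, adjusted p = 0.139) did not pass the test. It passed without High Activity male 7, at -0.28 with an adjusted p of 0.0298. Over the 16 fits without 1 library the male value ranged from -0.28 to -0.14, with adjusted p up to 0.425. Over the 11 other alternatives it ranged from -0.21 to -0.08, with adjusted p from 0.0970 to 0.760, and did not pass in any.

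The strain difference of Kcna1 differed between females and males by 0.54 (SE 0.11, unadjusted p = 7.13e-05), with an adjusted p of 0.0893 by edgeR. No gene of the 31960 was called for the interaction (0.0%), and 10% had an unadjusted p under 0.05. DESeq2 called Kcna1 for the interaction at an adjusted p of 0.0240. It was also called without High Activity male 5 (adjusted p = 0.0347) and without High Activity male 7 (adjusted p = 0.0174). Over the fits without 1 library its adjusted p ranged from 0.0174 to 0.217. Over the 10 other alternatives the interaction ranged from 0.40 to 0.54, with adjusted p from 0.0240 to 0.287. Male minus female was 0.32 in Low Activity mice (SE 0.08, adjusted p = 0.0872) and -0.21 in High Activity mice (SE 0.08, adjusted p = 0.817).

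Kcna4 encodes an A-type axonal subunit that inactivates rapidly, and it lies on chromosome 2 from 107290639 to 107298502 on the plus strand. Kcna4 was at 25.1, 25.9, 25.4 and 27.1 CPM in High Activity males, against 33.3, 30.3, 28.1 and 29.3 CPM in Low Activity males. The male groups did not overlap, but the value of -0.22 (SE 0.07, adjusted p = 0.0780) did not pass the test. In females it was at 32.1, 28.5, 28.1 and 26.8 CPM in High Activity, against 34.6, 32.5, 31.4 and 27.2 CPM in Low Activity, with overlapping groups and a value of -0.12 (SE 0.07, adjusted p = 0.415). The mean was -0.17 (SE 0.05, adjusted p = 0.0297). That call was lost without any of 8 libraries (High Activity females 2, 3 and 4, High Activity male 5, Low Activity females 9, 10 and 11, and Low Activity male 13), where the value was -0.17 to -0.15 and the adjusted p reached 0.0861.

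Of the other Kv1 members none was called in any strain contrast. Kcna2, the usual partner of Kcna1, averaged 202 ± 15.4 CPM in High Activity females and 198 ± 11.8 CPM in Low Activity females, and 205 ± 10.6 CPM in High Activity males and 223 ± 12.03 CPM in Low Activity males (SD, n = 4 each). Kcna3 and Kcna6 had mean log2 fold changes of -0.29 (SE 0.11, adjusted p = 0.0815) and 0.04 (SE 0.05, adjusted p = 0.795). For Kcna6, 39.4% of the 100-base stretches of its longest transcript also occurred in Gm26673, so its counts could have been split. Kcna5 averaged 1.21 CPM and was not called either.

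Silent Kv6 subunits, which change the current of Kv2 channels and form none alone, were called lower for the mean in 2 of 4 genes, against 5.89% of all genes, and 21% of genes at 1 CPM or more were called in either direction. Kcng2 lies on chromosome 18 from 80294546 to 80364254 on the minus strand. Kcng2 was at 27.8, 24.8, 26.3 and 23.1 CPM in High Activity females, against 34.0, 32.4, 29.5 and 30.3 CPM in Low Activity females. In males it was at 25.7, 19.95, 24.7 and 19.7 CPM in High Activity, against 29.8, 27.4, 27.1 and 32.2 CPM in Low Activity. In each sex all High Activity libraries were below all Low Activity libraries. The log2 fold change was -0.31 in females (SE 0.08, adjusted p = 0.0233), -0.37 in males (SE 0.09, adjusted p = 0.00669) and -0.34 for the mean (SE 0.06, adjusted p = 0.000229), and it differed between the sexes by 0.06 (SE 0.12, adjusted p = 1).

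Kcng2 was the only member called in both sexes. The call in females was lost without High Activity female 2 (adjusted p = 0.0711), High Activity female 4 (0.0994), Low Activity female 9 (0.101) or Low Activity female 10 (0.0648), and with an offset for transcript length and GC content (0.123). High Activity males 6 and 8 had the lowest male values, and without them the male value was -0.21 with an adjusted p of 0.245. Without the 4 libraries of raised thalamus and habenula markers, the male value was -0.17 with an adjusted p of 0.561. The mean kept its call without High Activity males 6 and 8, at -0.26 with an adjusted p of 0.00141. Of 3 genes that overlap Kcng2 in position, D330025C20Rik was the highest at 0.949 CPM, and none was called for any strain effect.

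Kcng1 lies on chromosome 2 from 168260117 to 168281736 on the minus strand. Kcng1 was at 34.0, 27.8, 32.7 and 25.5 CPM in High Activity males, against 42.7, 36.9, 34.2 and 36.7 CPM in Low Activity males. In females it was at 28.4, 39.0, 29.4 and 28.0 CPM in High Activity, against 38.4, 32.5, 37.3 and 43.4 CPM in Low Activity. The male groups did not overlap, by a narrow gap, and in females only High Activity female 2 lay within the Low Activity range. The log2 fold change was -0.28 in females (SE 0.10, adjusted p = 0.111), -0.32 in males (SE 0.10, adjusted p = 0.0647) and -0.30 for the mean (SE 0.07, adjusted p = 0.00568). Without High Activity female 2 the female value was -0.40 with an adjusted p of 0.00950 and the male value passed at 0.0311. The male value also passed without High Activity male 5 (adjusted p = 0.0270), High Activity male 7 (0.0458) or Low Activity male 15 (0.0490). Over the 11 other alternatives the male value ranged from -0.32 to -0.17, with adjusted p from 0.0451 to 0.529. Among these it passed only with p-values adjusted over protein-coding genes. The call for any strain effect (adjusted p = 0.0192) was lost without Low Activity male 13 and with limma-voom.

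Kcng3 and Kcng4, the other silent Kv6 genes, averaged 3.08 and 9.16 CPM and were not called. The most abundant members of the other silent families were Kcnf1 (Kv5), Kcnv1 (Kv8) and Kcns2 (Kv9). Kcnf1 averaged 44.5 ± 7.19 CPM in High Activity females and 45.7 ± 3.11 CPM in Low Activity females, and 42.9 ± 7.62 CPM in High Activity males and 42.0 ± 6.24 CPM in Low Activity males (SD, n = 4 each). Kcnv1 averaged 40.7 ± 4.96 CPM in High Activity females and 43.7 ± 3.07 CPM in Low Activity females, and 35.3 ± 8.31 CPM in High Activity males and 39.5 ± 3.45 CPM in Low Activity males (SD, n = 4 each). Kcns2 averaged 36.7 ± 2.02 CPM in High Activity females and 40.8 ± 4.13 CPM in Low Activity females, and 42.0 ± 2.91 CPM in High Activity males and 43.2 ± 4.91 CPM in Low Activity males (SD, n = 4 each). For each of these 3 genes and each sex, the difference between the strains was smaller than or close to the larger SD of the 2 groups. It exceeded the smaller SD for Kcns2 in females and Kcnv1 in males. The Kv2 genes that silent subunits join were not called. Kcnb2 averaged 24.4 CPM over the 16 libraries, with a mean log2 fold change of -0.04 (SE 0.05, adjusted p = 0.789). With an offset for transcript length and GC content Kcnb2 was called in females, for any strain effect and for the mean.

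The ether-à-go-go group (Kv10 to Kv12, the Kcnh genes) had 2 called members, both lower. Kcnh1 encodes the founding mammalian subunit of the group, lies on chromosome 1 from 192190774 to 192510159 on the plus strand, and was at 53.6, 41.2, 57.9 and 39.9 CPM in High Activity males, against 68.8, 58.6, 66.1 and 56.2 CPM in Low Activity males. High Activity male 7 lay within the Low Activity range, and High Activity males 6 and 8 were far below it. In females Kcnh1 was at 50.6, 50.5, 48.7 and 60.8 CPM in High Activity, against 57.3, 58.9, 57.7 and 60.6 CPM in Low Activity. High Activity female 4 lay above all Low Activity females, and the other High Activity females lay below them. The log2 fold change was -0.37 in males (SE 0.09, adjusted p = 0.0120), -0.15 in females (SE 0.09, adjusted p = 0.407) and -0.26 for the mean (SE 0.07, adjusted p = 0.00690). The male call was lost without High Activity male 8 (adjusted p = 0.0634), without Low Activity male 13 (0.0576), with males fitted alone (0.0620) and, with a smaller value of -0.16, without High Activity males 6 and 8 (0.360). Hhat, on the opposite strand, overlaps Kcnh1 and averaged 0.719 CPM.

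Kcnh4, an Elk-type subunit, was the least abundant called gene and lies on chromosome 11 from 100740376 to 100759942 on the minus strand. Kcnh4 was at 1.53, 1.43, 1.90 and 2.67 CPM in High Activity females, against 2.64, 3.38, 2.55 and 3.105 CPM in Low Activity females. In males it was at 1.13, 1.97, 1.11 and 1.96 CPM in High Activity, against 2.03, 1.85, 2.15 and 2.28 CPM in Low Activity. Both sexes overlapped, and neither sex passed the test alone, at -0.63 in females (SE 0.23, adjusted p = 0.104) and -0.44 in males (SE 0.24, adjusted p = 0.376). Over the 11 other alternatives the male value ranged from -0.90 to -0.43 and did not pass in any (adjusted p from 0.0787 to 0.475). The mean was -0.54 (SE 0.17, adjusted p = 0.0334). The call was lost without any of 9 libraries (High Activity females 1, 2 and 3, High Activity males 5 and 7, Low Activity females 10 and 12, and Low Activity males 15 and 16), with adjusted p up to 0.0853. In females Kcnh4 passed without High Activity female 4 (-0.84, adjusted p = 0.0322). For any strain effect Kcnh4 was not called (adjusted p = 0.0814). That call was made in 1 of the 16 fits without 1 library and in 3 of the 10 other alternatives. These 3 were limma-voom, the fit without High Activity males 6 and 8, and the fit without the 4 libraries of raised thalamus and habenula markers. Kcnh3, the most abundant Kcnh gene per length, averaged 89.1 ± 9.42 CPM in High Activity females and 95.9 ± 4.28 CPM in Low Activity females, and 85.3 ± 8.67 CPM in High Activity males and 81.6 ± 3.52 CPM in Low Activity males (SD, n = 4 each), and was not called. Kcnh2, the cardiac ERG channel that is also expressed in brain, and Kcnh5 and Kcnh7 were not called either, although with the length and GC offset Kcnh2 and Kcnh7 were called for the mean and Kcnh7 for any strain effect.

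Kv4 and Kv7 had no called member. Kcnd2 averaged 127 ± 6.19 CPM in High Activity females and 126 ± 10.8 CPM in Low Activity females, and 129 ± 4.33 CPM in High Activity males and 135 ± 13.05 CPM in Low Activity males (n = 4 each, SD). Its mean log2 fold change was -0.03 (SE 0.04, adjusted p = 0.876), and Kcnd3 and Kcnd1 were at -0.03 (SE 0.06) and -0.08 (SE 0.07). Kcnq3, a subunit of the M-current channels that damp repetitive firing, averaged 192 ± 7.53 CPM in High Activity females and 164 ± 6.85 CPM in Low Activity females (SD, n = 4 each), and these groups did not overlap. Its log2 fold change in females was 0.23 (SE 0.08, adjusted p = 0.0728), and that of Kcnq5 was 0.21 (SE 0.08, adjusted p = 0.162), also without overlap. In males both genes overlapped and were slightly below 0, Kcnq3 at -0.05 (SE 0.08, adjusted p = 0.799) and Kcnq5 at -0.05 (SE 0.08, adjusted p = 0.848). For the mean Kcnq3 was at 0.09 (SE 0.05, adjusted p = 0.369) and Kcnq5 at 0.08 (SE 0.06, adjusted p = 0.498). In females Kcnq3 passed the test without High Activity male 6, High Activity male 7, Low Activity male 13 or Low Activity male 16, and Kcnq5 without High Activity male 7.

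Between the sexes no member was called in the joint test over both strains by edgeR's quasi-likelihood test (background 0.138%), 9 had an unadjusted p under 0.05 (background 8.82%), and DESeq2 called Kcna1 while limma-voom called none. For the interaction 6 members had an unadjusted p under 0.05, 4 with a more positive strain difference in females (Kcna1, Kcnh7, Kcnq3 and Kcnq5) and 2 with a more negative one (Kcnc4 and Kcns1). Over the 34 members at 1 CPM or more the median interaction was 0.09, beside -0.001 over all genes at that level. In Low Activity mice male minus female was 0.29 for Kcnq3 (SE 0.08, adjusted p = 0.103) and -0.23 for Kcnh3 (SE 0.07, adjusted p = 0.156). In High Activity mice the largest difference among members at 1 CPM or more with an unadjusted p under 0.05 was that of Kcng4, at 0.43 (SE 0.18, adjusted p = 0.817). Kcng4 was at 12.8 and 14.6 CPM in High Activity males 6 and 8 and at 8.30 and 5.42 CPM in High Activity males 5 and 7. It was at 6.95 to 8.55 CPM in High Activity females. All 4 libraries with raised thalamus and habenula markers were male, and their part in the differences between the sexes was not tested.

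Kcnc2, Kcnh2 and Kcng4 were high in the libraries with raised thalamus and habenula markers. For each of these genes, and for Kcna6 and Kcna2 with smaller differences, 3 of the 4 highest libraries were among those 4. No other member at 1 CPM or more reached this overlap. The share of all genes that did is not given here, so the overlap cannot be read as particular to Kv genes. Kcnc2 was at 89.6 to 145 CPM in the 4 libraries and at 76.6 to 106 CPM in the other 12, with a median of 80.2 CPM. Kcnh2 was at 31.1 to 47.9 CPM in the 4 libraries and at 23.1 to 33.3 CPM in the others, with a median of 27.0 CPM. Kcng4 was at 9.64 to 14.6 CPM in the 4 libraries and at 5.42 to 10.3 CPM in the others, with a median of 8.46 CPM. At the other end, Kcng3 was at 2.01 to 2.72 CPM in the 4 libraries and at 1.94 to 5.25 CPM in the others, and Kcnv1 was at 28.3 to 41.1 CPM and at 33.3 to 47.6 CPM. Of the called members, Kcnh1 and Kcng2 were the lowest in the 4 libraries relative to the others. Kcnh1 was at 39.9 to 58.6 CPM in the 4 and at 48.7 to 68.8 CPM in the others, and Kcng2 at 19.7 to 32.2 CPM and at 23.1 to 34.0 CPM. These libraries were chosen by the markers after the data were seen, and the part of the markers in the Kv values was not tested. Without the 4 libraries, 12 members were called for any strain effect, 7 in females, 4 in males, 9 for the mean and 2 for the interaction (Kcna1 and Kcnh7). Of all genes, 11.4% were then called for any strain effect, 10.7% in females, 3.82% in males, 10.5% for the mean and 0.31% for the interaction. These shares include genes under 1 CPM, while 34 of the 40 members were at 1 CPM or more. The share at that level in this fit is not given here, so these counts cannot be read as particular to Kv genes.

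**Figure D4:**
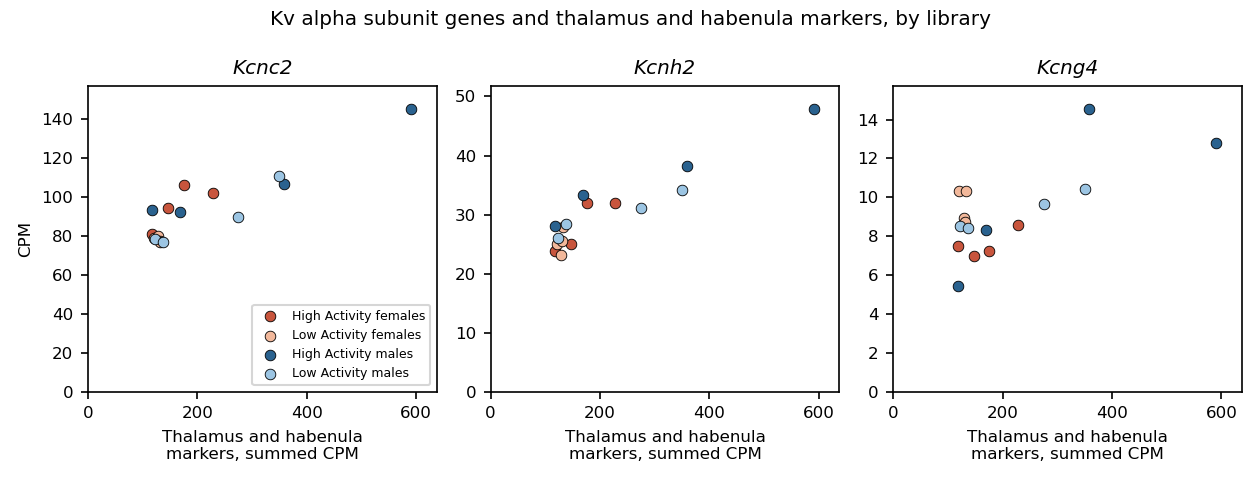
CPM of Kcnc2, Kcnh2 and Kcng4 against the summed CPM of 8 thalamus and habenula markers in the 16 libraries, coloured by group. High Activity male 6, at the right with 590 CPM of markers, has the highest Kcnc2 (145 CPM) and Kcnh2 (47.9 CPM), and High Activity male 8 has the highest Kcng4 (14.6 CPM).

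Kv channels work with auxiliary subunits, which change gating and trafficking, and with proteins that anchor them at defined sites of the axon or soma. Of 29 such partner genes, 7 were called for any strain effect (24.1%), against 10.3% of all genes, and among the 26 at 1 CPM or more the share was 26.9% against 19.6%. They were 3 of 16 auxiliary subunits and 4 of 13 anchoring or clustering proteins. For the mean, 4 anchoring genes were called higher and none lower, while 1 auxiliary gene was higher and 2 were lower, against 5.46% higher and 5.89% lower over all genes. All 13 anchoring genes were at 1 CPM or more, where 21% of genes were called for the mean in either direction.

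Kcnip3, a calcium sensor that binds Kv4 channels and also acts in the nucleus, had the largest mean difference of the called partners. Kcnip3 was at 43.5, 46.5, 44.7 and 48.8 CPM in High Activity females, against 84.3, 84.4, 86.7 and 92.9 CPM in Low Activity females. In males it was at 44.2, 65.1, 47.2 and 54.7 CPM in High Activity, against 72.2, 83.9, 75.5 and 70.2 CPM in Low Activity. The strains were apart in each sex, with log2 fold changes of -0.92 in females (SE 0.08, adjusted p = 7.77e-09) and -0.52 in males (SE 0.08, adjusted p = 0.000107). The other calcium sensors of this group, Kcnip1, Kcnip2 and Kcnip4, were not called.

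Cntnap2, the axonal protein Caspr2 that gathers Kv1 channels beside the nodes of Ranvier, was at 97.2 to 109 CPM in High Activity females and 66.9 to 77.6 CPM in Low Activity females. It was at 91.7 to 117 CPM in High Activity males and 67.3 to 86.0 CPM in Low Activity males, apart in each sex, with a mean log2 fold change of 0.49 (SE 0.05, adjusted p = 1.08e-07). Cntn2, which holds Cntnap2 in place, and Ank3, which anchors Kv7 channels at the initial segment, were called higher in females and not in males. Cntn2 was at 0.41 in females (SE 0.07, adjusted p = 0.000155) and -0.02 in males, and Ank3 was at 0.42 in females (SE 0.08, adjusted p = 0.000651) and -0.02 in males. The differences between the sexes were 0.44 for Cntn2 (adjusted p = 0.102) and 0.44 for Ank3 (adjusted p = 0.137), and neither passed the test. Dlg2, a scaffold that binds Kv1 tails, was higher for the mean by 0.26 (SE 0.04, adjusted p = 0.000122). Dpp6, a Kv4 auxiliary subunit, was higher by 0.14 (SE 0.04, adjusted p = 0.00793), and Amigo1, the auxiliary subunit of Kv2 channels, was lower at -0.18 (SE 0.04, adjusted p = 0.000745). Kcne2, an auxiliary subunit abundant in choroid plexus, was at 0.77 for the mean (SE 0.32, adjusted p = 0.141). The 6 choroid plexus markers, of which none was called or at 0, summed to 994 to 4467 CPM in High Activity females, 130 to 1679 CPM in Low Activity females, 2289 to 5282 CPM in High Activity males and 724 to 3545 CPM in Low Activity males, and their part in the Kcne2 value was not tested.

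**Figure D5:**
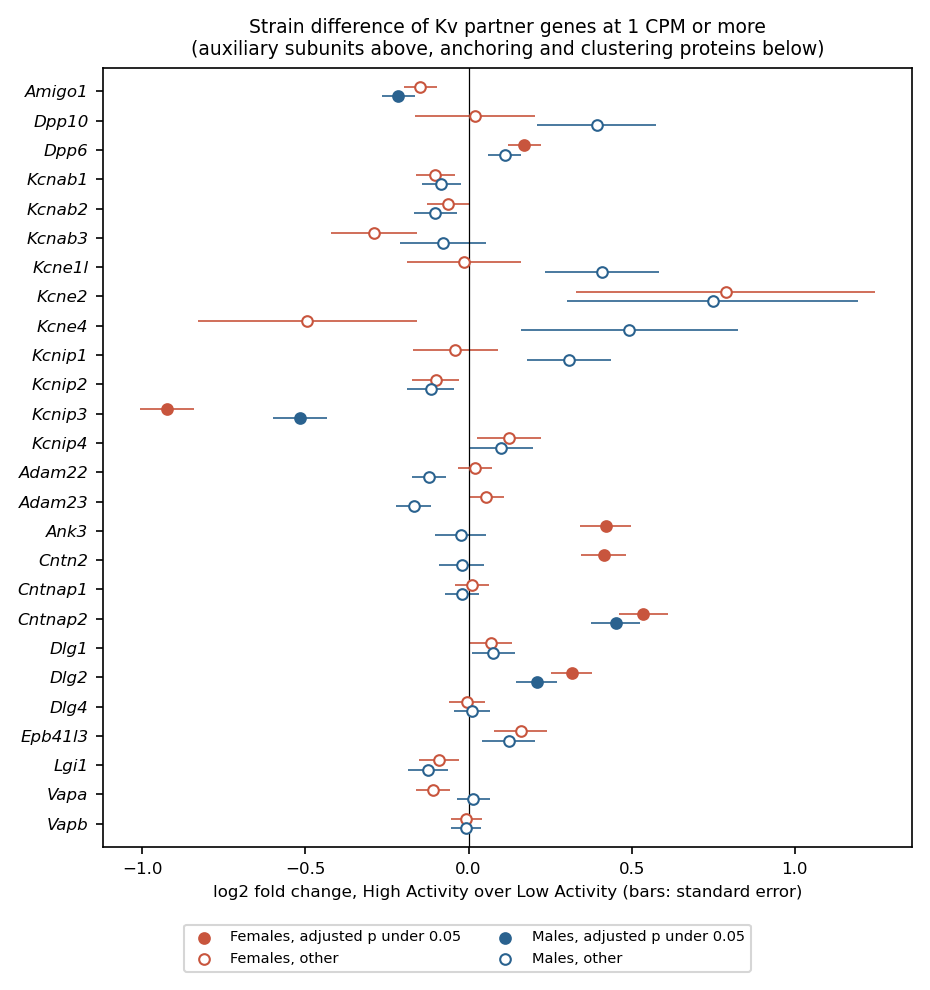
Log2 fold change of High over Low Activity with its standard error in females (red) and males (blue) for the 26 Kv partner genes with a mean of at least 1 CPM. Filled points passed an adjusted p of 0.05. Kcnip3 lies far below 0 in both sexes, and Cntnap2 and Dlg2 are above 0 and filled in both.

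Kcnc4 has Kcna2, Kcna3 and Kcna10 within 1 Mb on chromosome 3 and Kcna1 has Kcna5 and Kcna6 on chromosome 6, and none of these 5 neighbours was called. Of genes at 1 CPM or more that start within 1 Mb, 6 of 34 were called around Kcnc4, 4 of 10 around Kcng2, 3 of 13 around Kcna1, 0 of 18 around Kcnh1, 3 of 17 around Kcng1, 0 of 5 around Kcnc2, 2 of 3 around Kcna4 and 5 of 52 around Kcnh4, against 19.6% of all genes at that level.

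In the RefSeq table on GRCm38.p6, 25 of the 40 members had an entry, and the 250 bases before each start were used. The median GC content was 65.2% over these members and 52.8% over 27025 genes, taking the richest start of each gene. The GC box, GGGCGG on either strand, occurred for 16 of 25 members (64.0%) and for 35.4% of all genes. CCAAT on either strand occurred for 5 members (20%) and for 37.5% of all genes, and TATAAA on either strand for none of the members and for 14.3% of all genes. The promoters of Kcna4 and Kcnh1, which were lower for the mean, and of Kcnc2, which was higher, are shown with matches to these 3 motifs in capitals. They lie on the plus strand at chr2:107290339-107290588, chr1:192190527-192190776 and chr10:112270871-112271120.
Kcna4: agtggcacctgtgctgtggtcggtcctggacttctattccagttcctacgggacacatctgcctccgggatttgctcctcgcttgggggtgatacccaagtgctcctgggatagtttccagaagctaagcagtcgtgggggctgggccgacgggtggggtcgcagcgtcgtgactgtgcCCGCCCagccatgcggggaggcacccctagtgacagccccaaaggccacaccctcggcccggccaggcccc
Kcnh1: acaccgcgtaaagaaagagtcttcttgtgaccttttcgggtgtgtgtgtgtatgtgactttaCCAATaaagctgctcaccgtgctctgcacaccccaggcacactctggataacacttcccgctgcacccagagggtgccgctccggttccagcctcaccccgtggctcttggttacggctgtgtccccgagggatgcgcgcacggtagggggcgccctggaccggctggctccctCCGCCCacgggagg
Kcnc2: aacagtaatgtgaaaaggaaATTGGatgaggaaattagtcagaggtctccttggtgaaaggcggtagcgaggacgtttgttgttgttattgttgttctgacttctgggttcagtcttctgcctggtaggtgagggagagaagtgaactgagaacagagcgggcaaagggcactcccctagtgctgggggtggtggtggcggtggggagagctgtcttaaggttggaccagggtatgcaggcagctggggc
The Kcna4 and Kcnh1 windows each held 1 GC box, and the Kcnh1 and Kcnc2 windows each held 1 CCAAT match. The Kcnc2 window shown held no GC box, but another RefSeq start of Kcnc2 did, so that all 5 called members with an entry (Kcna4, Kcnc2, Kcnc4, Kcnh1 and Kcnh4) had a GC box whichever way they differed. A match is a description of the letters, and no binding was measured.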

How the data were processed

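Hippocampal poly-A RNA of 16 mice was sequenced by the authors, with 1 library per mouse. Per the labels and the methods, reads were aligned with HISAT2 and quantified with RSEM on mm10, and the authors tested with DESeq2 1.30.1. The deposited table holds expected counts per gene as whole numbers, which were used as deposited, without pooling. Whether the counting used strand is not given in the sources used here. Of the gene IDs, 61 had no entry in the annotation.

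Counts of 31960 genes were fitted with edgeR 4.0.16 in R 4.3.3 (TMM factors, no minimum expression filter, quasi-likelihood F-test with Benjamini-Hochberg adjustment over all genes, threshold 0.05) with strain, sex and their interaction over all 16 libraries, which share 1 estimate of the spread. Levels between genes were set per kb of the longest GENCODE M21 transcript. Some members were fitted and counted but are not reported here. The text gives the other members called in a strain contrast with full values, the most abundant members of each family, and partner genes called for any strain effect. The other members and partners given with values, and the libraries of raised thalamus and habenula markers were chosen after their values were seen. The members and lists were chosen with earlier results of these data known.

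Alternatives were filterByExpr (17805 genes kept), RLE, upper-quartile and no composition factors, DESeq2 1.42.0, limma-voom (limma 3.58.1), a correction for transcript length and GC content (5-df spline), p-values adjusted only over the 18915 protein-coding genes, 1 fit for each sex, and fits without 1 library, without High Activity males 6 and 8 and, chosen after seeing the data, without the 4 libraries of highest thalamus and habenula markers. Fits were tested on simulated data. Sequences came from GENCODE M21 transcripts and from RefSeq.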

Additional observations from a re-analysis of the deposited data

Results flagged for a closer look

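In 7 of 120 groups of 4 libraries, the highest or lowest library of a member stood apart from the other 3 by more than Dixon's 95% critical value, and chance gives about 1 in 20. High Activity female 1 was highest for Kcna6 at 87.4 CPM, with the others at 77.1 to 78.7. High Activity female 3 was lowest for Kcnc1 at 152 CPM (others 174 to 178), and High Activity male 6 was highest for Kcnc1 at 193 CPM (others 165 to 169). High Activity female 2 was highest for Kcng1 at 39.0 CPM (others 28.0 to 29.4) and for Kcng3 at 5.25 CPM (others 2.78 to 3.13). High Activity female 4 was highest for Kcnh1 at 60.8 CPM (others 48.7 to 50.6). Low Activity female 12 was lowest for Kcnh3 at 89.6 CPM (others 97.2 to 98.6).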

How the results depend on the processing

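Fold changes were recomputed for the 9 called members only, and none of their called values changed direction. Over their strain contrasts and the Kcna1 interaction, 666 values stayed on their side of the threshold, 22 passed it newly and 32 lost it. Leaving out 1 library at a time gave 5 to 12 members with any strain effect, 2 to 5 in females, 1 to 7 in males, 6 to 9 for the mean, 0 to 1 for the interaction, 0 to 2 for sex (1 without High Activity female 3, 2 without High Activity male 7), and 6 to 8 partner genes with any strain effect. The length and GC offset gave 11 members for the mean, against 8. DESeq2 called 1 member for the interaction and 1 for sex. Fitting each sex alone gave 7 members in females. Without High Activity males 6 and 8 the counts were 7 in females, 1 in males and 2 for sex. Without the 4 libraries of highest thalamus and habenula markers, chosen after seeing the data, they were 12 for any strain effect, 7 in females, 2 for the interaction and 4 for sex. The shares of all genes called in these fits are not given here, apart from the strain and interaction calls without the 4 libraries. Where no share is given, a count cannot be read as particular to these genes. The causes were not tested. No paired analysis was possible because the groups share no replicate numbers. The 6 members under 1 CPM had the fewest counts, and their fold changes were not read.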
